A study of Mus musculus with 15 samples.

Results

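The genes that encode the proteins of the cytosolic ribosome were followed in sorted mouse blood stem and progenitor cells. They were taken by symbol from the deposited expression table: names of the form Rpl or Rps with a number, the acidic stalk genes Rplp0 to Rplp2, and Rpsa, leaving out Rpl34 and the -ps pseudogenes. The symbols matched 87 of 44827 rows, 51 of the large (60S) subunit and 36 of the small (40S) subunit. GENCODE M21 (build GRCm38) calls 82 of them protein-coding and 5 processed pseudogenes (Rpl6l, Rps12l1, Rps3a2, Rps3a3 and Rps4l). Of the 87 genes 83 passed a filter of 1 CPM (counts scaled to library size, as the authors' table gives them) in at least 3 libraries and were tested, 48 of the 60S and 35 of the 40S subunit. Rpl3l, Rpl10l, Rpl39l and Rps12l1 did not pass.

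The cells were LSK cells (lineage-negative, positive for Sca1 and cKit), sorted from bone marrow of C57BL/6 mice, a fraction enriched for blood stem cells and early progenitors. There were 5 groups of 3 libraries. They were Tet2-/- Nras(G12D) with leukemia, called leukemic double mutant, Tet2-/- Nras(G12D) without leukemia, called double mutant, Nras(G12D) alone, Tet2-/- alone, and WT. The design text describes the mutations as conditional and specific to hematopoietic tissue, and gives the age in the methylome arm as 6 months. The Cre line is not named, and separate animals are not stated for the 3 libraries within a group, so p-values measure the spread between libraries, which may be technical. The leukemic columns were matched to their samples by a description that also carries the letters BMT, whose meaning was not established, and whatever BMT marks cannot be told apart from leukemia.

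A ribosome is assembled from ribosomal RNA and a fixed set of proteins, nearly all of them in a single copy per particle, and dividing cells spend much of their transcription on these parts. Most ribosomal protein mRNAs begin with a C followed by a run of pyrimidines, the 5′ terminal oligopyrimidine (TOP) tract, through which the kinase mTORC1 controls their translation. Blood formation is sensitive to the supply: in humans, loss of RPS19 or RPL5 causes Diamond-Blackfan anaemia and loss of RPS14 contributes to the 5q- syndrome. Tet2 oxidises methylated cytosine in DNA, and Nras(G12D) is an activated form of the signalling protein Nras.

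The promoters are shown first because the TOP tract is defined at the start site. RefSeq start sites (GRCm38.p6) were matched for 62 of the 87 genes, with 73 promoters. In the windows below, from 80 bases before to 20 bases after the start, capitals mark a C within 5 bases of the start that is followed by at least 4 pyrimidines. Rplp2, Rps2, Rpl38, Rps6 and Rps9 were chosen to show the tract in genes of the results. Rpl13 and Rpl27 are 2 genes of the results in which no such tract was found within 5 bases of the start. Runs of pyrimidines do lie elsewhere in their windows. GENCODE M21 starts Rpl27 at position 101442298, beyond the end of its window at 101442264. A tract at that start would not be seen here.
Rplp2 (chr7:141447571-141447670, plus strand): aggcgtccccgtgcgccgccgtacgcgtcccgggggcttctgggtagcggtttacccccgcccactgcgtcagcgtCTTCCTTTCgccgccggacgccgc
Rps2 (chr17:24719983-24720082, plus strand): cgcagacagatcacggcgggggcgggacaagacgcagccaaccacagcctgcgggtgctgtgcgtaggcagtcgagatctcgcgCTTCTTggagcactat
Rpl38 (chr11:114668500-114668599, plus strand): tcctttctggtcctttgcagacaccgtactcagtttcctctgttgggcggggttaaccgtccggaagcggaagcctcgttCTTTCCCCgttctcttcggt
Rps6 (chr4:86857348-86857447, minus strand): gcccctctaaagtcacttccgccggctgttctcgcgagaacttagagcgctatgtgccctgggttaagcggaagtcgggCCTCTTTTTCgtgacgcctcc
Rps9 (chr7:3703961-3704060, plus strand): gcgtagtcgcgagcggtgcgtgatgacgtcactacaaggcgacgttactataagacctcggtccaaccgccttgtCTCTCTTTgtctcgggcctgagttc
Rpl13 (chr8:123102270-123102369, plus strand): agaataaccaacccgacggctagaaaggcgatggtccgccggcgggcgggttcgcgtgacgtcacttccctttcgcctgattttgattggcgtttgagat
Rpl27 (chr11:101442165-101442264, plus strand): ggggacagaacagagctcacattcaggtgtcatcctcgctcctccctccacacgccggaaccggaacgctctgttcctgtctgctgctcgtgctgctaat

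A tract by this definition was found in 39.7% of the 73 promoters and in 18.3% of all 32851 mouse promoters in the table. Other motifs were searched on both strands from 250 bases before to 50 bases after the start. CCGGAAG, bound by ETS family factors, was in 35.6% of the ribosomal protein promoters and 8.9% of all. AAGATGGC, the core of the YY1 site, was in 11.0% and 2.7%. The GC box GGGCGG was in 58.9% and 35.7%, and the TATA box TATAAA in 9.6% and 13.6%. Rplp2, Rps2, Rpl38 and Rps6 each hold the ETS letters, and Rps9, Rpl13 and Rpl27 do not.

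The genes lie on 19 chromosomes, 4 of them on X, and their transcripts are short, with a median length of 833 bases against 2762.5 for all genes tested. Of the 83 tested genes 30 have a small nucleolar RNA gene inside them (36.1%, against 1.96% of all genes tested), and 51 of the 87 have a copy elsewhere in the annotation with at least 95% identity over at least 60% of the transcript. How the authors' counting treated reads that such copies share is not given in the sources used here.

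Recovered counts per library ran from 22733189 to 43562909, and the largest limit that a count of 0 allows (3 counts) was 0.127 CPM. Tet2 itself was read at 32.3 to 76.5 CPM in the 3 leukemic libraries, 47.9 to 62.6 in double mutant libraries, 45.2 to 75.1 for Nras(G12D), 35.9 to 59.8 for Tet2-/- and 50.7 to 65.2 for WT. The ranges overlap, so the gene total does not check the Tet2 labels, which a deletion of part of a gene can leave as it is. Libraries of at least 1 group differed in sex: Ddx3y was above 10 CPM in 5 of the 15. How these 5 fall among the groups is not given here, and sex may be spread unevenly over the genotypes. The LSK markers Kit, Ly6a and Cd34 were detected in every library.

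Ribosomal protein mRNAs were among the abundant messages of these cells. The median over the 87 genes of the mean level was 233 CPM, 70 genes were at 100 CPM or more, and 3 were at 1000 CPM or more. Rpl4, a 60S protein, had the highest mean, 2154 CPM, followed by Rplp0, the base of the stalk that recruits translation factors, at 1638 CPM and Rps3, at the mRNA entry site of the 40S subunit, at 1158 CPM. Per kilobase of transcript the order was Rpl32 with 1599 CPM per kb, Rpl4 with 1401 and Rps9 with 1307. At the low end of the tested genes stood the processed pseudogene Rpl6l with 1.17 CPM, Rpl24 with 1.18 and the pseudogene Rps3a3 with 2.4. Rpl24 overlaps another gene model, Gm28037, on the same strand, which was listed at 0 in every library, and 3 near-identical copies of Rpl24 in the table summed to 5.38 CPM. Rpl23a, at 5.53 CPM, likewise had 61.6% of the counts of itself and its copies in the copies. The levels of Rpl24 and Rpl23a are therefore uncertain.

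The genes moved together from library to library. Over the 15 libraries the median correlation between 2 of the 83 genes was 0.76 (Pearson's r on log2 CPM, 3403 pairs, genes of 1 library sharing its depth and scaling). The correlation with the median of all 83 was 0.8 or more for 58 genes. It was below 0.5 for 8: Rps4l (-0.12), Rpl13 (0.04), Rpl24 (0.04), Rpl7l1 (0.05), Rps2 (0.17), Rplp2 (0.41), Rpl22l1 (0.46) and Rpl8 (0.48). The SD of a gene over the 15 libraries had a median of 0.31 on the log2 scale for the ribosomal protein genes, against 0.61 for all genes tested and 0.43 for genes at or above their median level. Once the median of the 83 in each library was subtracted, it was 0.14. The tested genes with the largest spread were Rps2 (SD 1.11, from 89.9 to 1229 CPM), Rpl13 (1.03, from 77.2 to 752 CPM) and the pseudogene Rps4l (0.8, from 3.74 to 22.5 CPM).

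**Figure D1:**
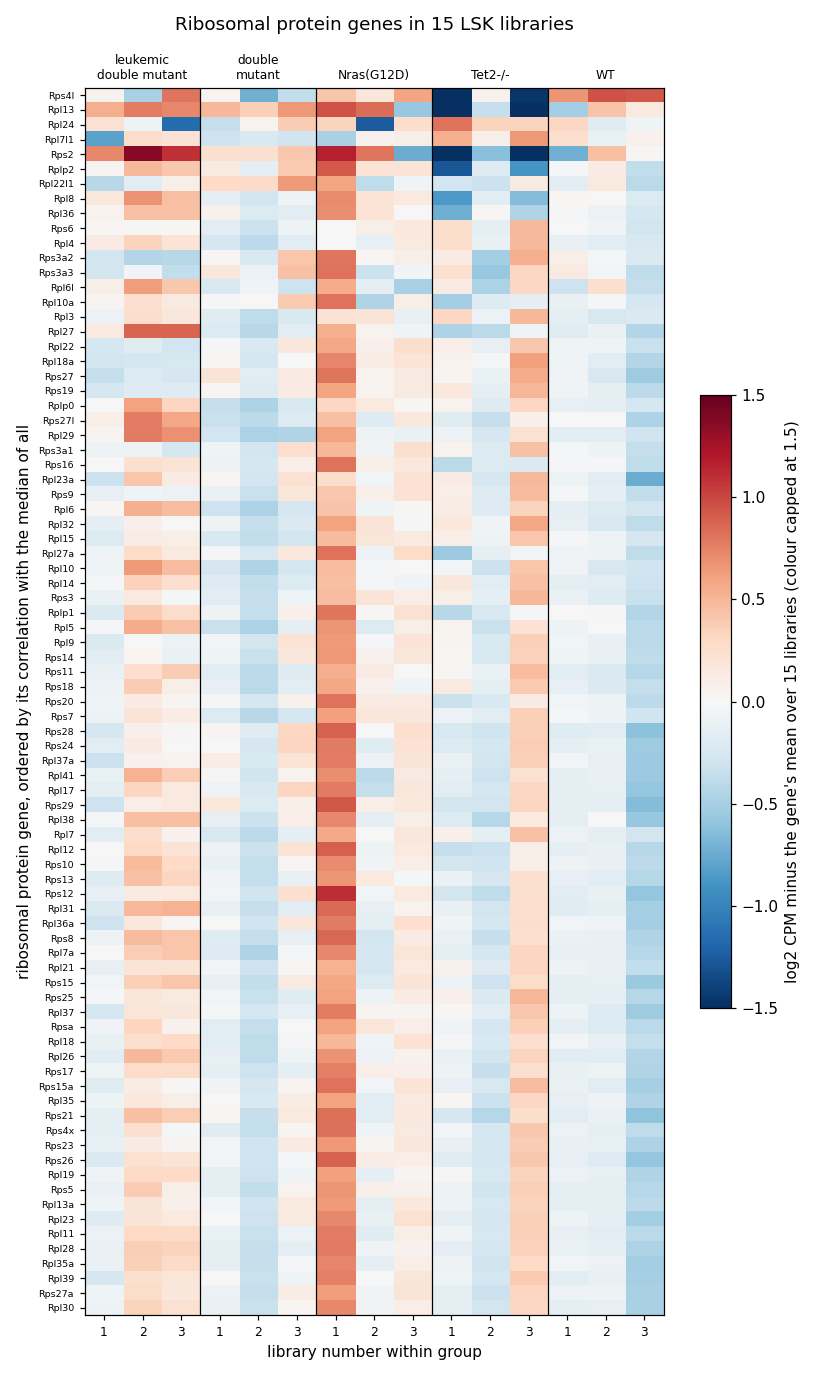
Each row is 1 of the 83 tested ribosomal protein genes and each column 1 of the 15 libraries; colour gives log2 CPM minus the gene's mean over the libraries, red for higher and blue for lower. Most rows share the pattern of Nras(G12D) library 1 high and WT library 3 low, while Rps4l, Rpl13, Rps2 and Rplp2 near the top are low in Tet2-/- libraries 1 and 3.

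Single libraries stood apart within their genotypes. In Nras(G12D) library 1 the median deviation of the 83 genes from their own means was 0.67 on the log2 scale, with 81 genes above their mean, while it was -0.04 and 0.13 in Nras(G12D) 2 and 3. In Tet2-/- 1, 2 and 3 it was -0.08, -0.25 and 0.34. The leukemic double mutant stood at -0.09, 0.26 and 0.17, the double mutant at -0.08, -0.33 and 0.03, and WT at -0.10, -0.12 and -0.40. All libraries of the leukemic double mutant and of Nras(G12D) lay above those of WT, the nearest being leukemic library 1 at -0.09 and WT library 1 at -0.10, and every other pair of groups overlapped. The 60S and 40S medians differed most in leukemic library 2, at 0.31 and 0.17.

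**Figure D2:**
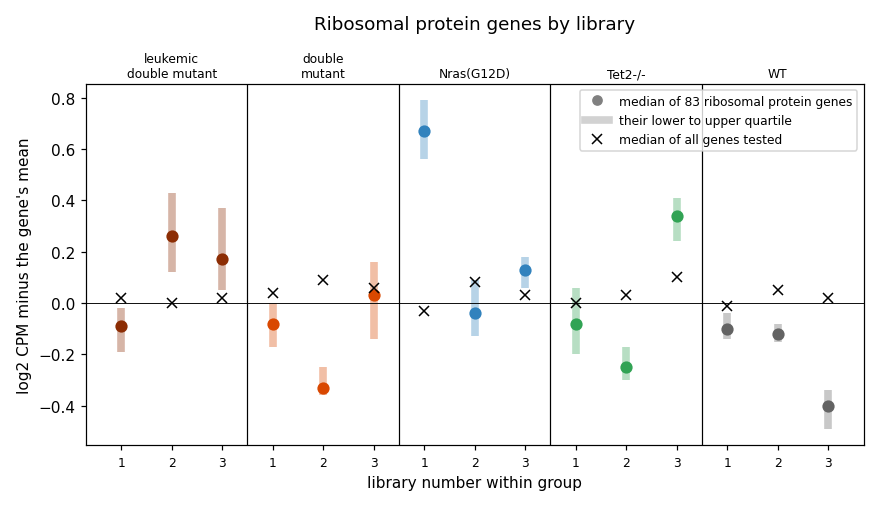
For each library on the x axis, a point gives the median over the 83 ribosomal protein genes of log2 CPM minus the gene's mean, a bar the lower to upper quartile and a cross the median of all 13927 genes tested. Nras(G12D) library 1 stands highest at 0.67 and WT library 3 lowest at -0.40, while the crosses stay between -0.03 and 0.10.

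Summed over the 87 genes, ribosomal protein counts made up 2.79% ± 0.127 of a library in the leukemic double mutant, 2.70% ± 0.358 in the double mutant, 3.55% ± 1.08 in Nras(G12D), 2.95% ± 0.448 in Tet2-/- and 2.67% ± 0.295 in WT (mean ± SD, n = 3 each). Nras(G12D) library 1 held the highest share, 4.74%, against 2.63% and 3.28% in the other libraries of its group. The share from mitochondrially encoded genes was also highest there, at 3.17% against 1.05% to 2.11% in the other 14 libraries, and its part in the ribosomal protein share was not tested. Each library's 95% Wilson interval was at most 0.017 percentage points wide and covers counting error only. The spread between libraries was far wider than that. In bulk RNA, more cells with high ribosomal protein expression and more of this mRNA per cell cannot be told apart.

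The leukemic double mutant was set against the double mutant, which asks what leukemia adds to the same genotype. Rpl29, Rpl27, Rps27l, Rpl6, Rplp0 and Rpl4 rose and none of the 83 genes fell, while of all 13927 genes tested 9.04% rose and 15.2% fell (24.3% called in all). The count of rises, 6 of 83, is thus near the background. The median log2 change of the 83 was 0.23, with 67 above 0, against -0.10 for all genes. Calls are those with an adjusted p below 0.05 (limma, two-sided, Benjamini-Hochberg over all genes tested).

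Rpl27, a 60S protein, had 137, 225 and 225 CPM in the leukemic double mutant, against 107, 92.2 and 110.1 CPM in the double mutant and 109, 115 and 91.2 CPM in WT. Every leukemic library was above every library of both other groups, and the log2 change was 0.89 ± 0.24 against the double mutant (adjusted p = 0.0173, limma). Rpl29, a 60S protein whose loss in mice reduces body size, had 133, 222 and 208 CPM in the leukemic double mutant, against 106, 93.2 and 94.4 CPM in the double mutant. Its groups did not overlap either, and the change was 0.91 ± 0.24 (adjusted p = 0.0176, limma). Rplp0 had 1599, 2444 and 2014 CPM in the leukemic double mutant, against 1263, 1161 and 1359 CPM in the double mutant, with a change of 0.66 ± 0.18 (adjusted p = 0.0185, limma). Its partners on the stalk, Rplp1 and Rplp2, had changes of 0.26 and 0.18 and were not called. Rpl6 had 388, 551 and 523 CPM in the leukemic double mutant, against 308, 277 and 319 CPM in the double mutant (0.68 ± 0.20, adjusted p = 0.0253, limma). Rpl4 had 2314, 2671 and 2442 CPM, against 1786, 1612 and 1909.7 CPM in the double mutant (0.49 ± 0.16, adjusted p = 0.0418, limma). In each of the 5 genes library 1 was the lowest leukemic library and library 2 or 3 the highest.

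**Figure D3:**
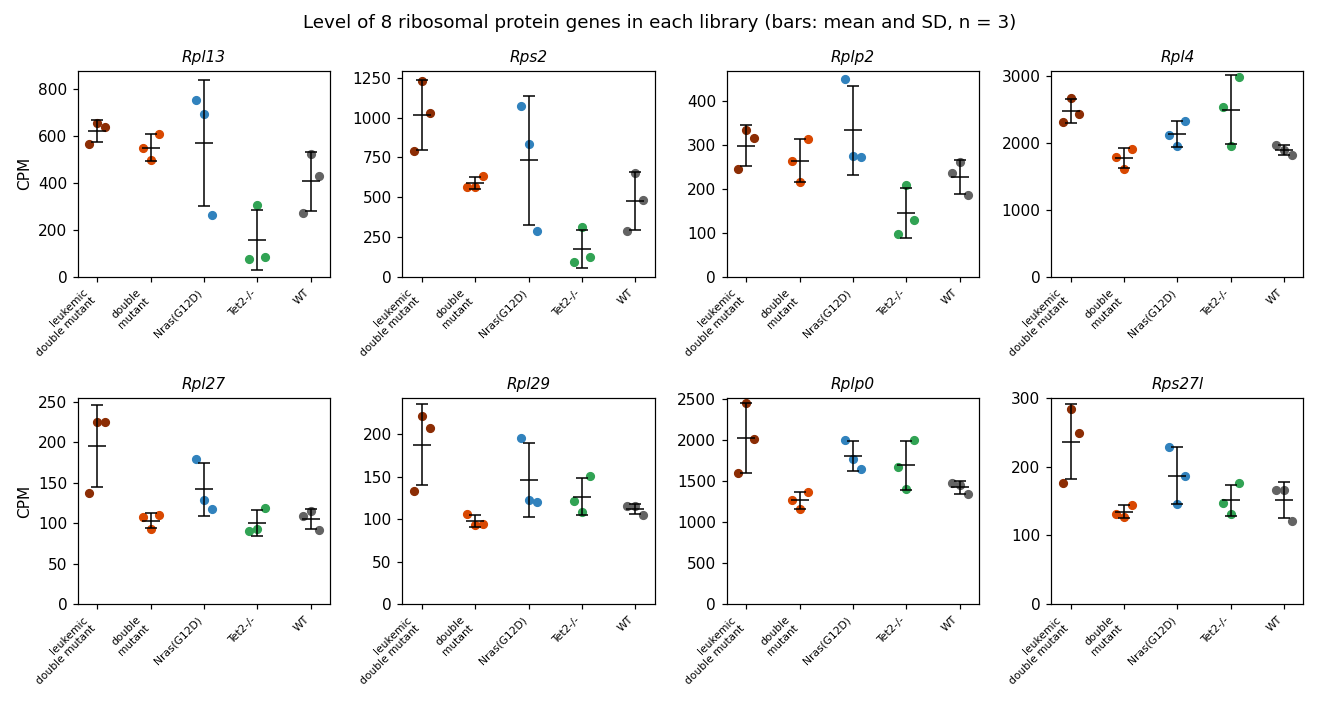
CPM in each library (points, libraries 1 to 3 from left to right within a group) for 8 ribosomal protein genes, with the mean and SD of each group of 3 as bars. Rpl27, Rpl29, Rplp0, Rpl4 and Rps27l are higher in the leukemic double mutant than in the double mutant, and Rpl13, Rps2 and Rplp2 are lowest in Tet2-/- libraries 1 and 3.

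Against WT, the leukemic double mutant had 2 rises, Rpl27 (0.87 ± 0.24, adjusted p = 0.0181, limma) and Rpl29 (0.71 ± 0.24, adjusted p = 0.0457, limma), and no fall. Of all genes 24.7% were called: 10.8% of all rose and 13.9% fell. The median of the 83 was 0.33, with 74 above 0, against 0 for all genes.

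These rises depended on how libraries were scaled. Scaled by total counts, the median of the 83 was 0.06 against WT and 0.00 against the double mutant, and none of the 83 was called. All genes had medians of -0.26 and -0.34, and 27% and 26.6% of them were called. Quantile normalization gave 0.04 and -0.06, also with no call among the 83, beside 22.9% and 17.9% of all genes. A fit of only the compared groups left no call against the double mutant either, with 5.32% of all genes called. The authors' scaling factors were 0.81 to 0.96 of total counts in the leukemic libraries and 1 to 1.06 in the double mutant. Leaving out leukemic library 2 or 3, or double mutant library 2, ended all 6 calls against the double mutant. The share of all genes called fell too, from 24.3% to 8.51%, 13% and 12.1%. Leaving out leukemic library 1 gave 11, a fit in which 38% of all genes were called. Without double mutant library 1 or 3 there were 3 and 2 (16.5% and 11.3% of all genes). Against WT, 10 genes were called without leukemic library 1 (37.7% of all genes) and 1 without WT library 2 (16.8%). None of the 83 was called without leukemic library 2 or 3 (10.5% and 13.3% of all genes) or WT library 1 or 3 (9.74% and 11.7%).

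Genes that build ribosomes were counted beside the ribosomal proteins, against 9.04% of all genes that rose relative to the double mutant and 10.8% relative to WT. Of 50 genes for ribosome biogenesis and RNA polymerase I, 26 rose in the leukemic double mutant against the double mutant and none fell (median 0.90), and 10 rose against WT (median 0.58). Ncl, the nucleolar protein nucleolin, had 2556, 4653 and 4115 CPM in the leukemic double mutant, against 1356, 1370.4 and 1400.0 CPM in the double mutant (1.41 ± 0.19, adjusted p = 0.00108, limma). Nhp2, of the box H/ACA particles that modify ribosomal RNA, changed by 1.63 ± 0.23, the RNA helicase Ddx21 by 1.58 ± 0.24 and the nucleolar phosphoprotein Nolc1 by 1.71 ± 0.30. Of 30 translation initiation factors 18 rose against the double mutant (median 0.92) and 13 against WT (median 0.67), with no fall. Of 20 other genes with TOP mRNAs 9 and 7 rose (medians 0.55 and 0.55), among them Npm1 by 1.08 ± 0.22 and Hnrnpa1 by 0.99 ± 0.19 against the double mutant. These counts too moved with the scaling and the fit. Against the double mutant, the biogenesis list had 17 rises under total-count scaling, 15 under quantile normalization and 8 in a fit of only the compared groups, beside 5.64%, 8.65% and 2.46% of all genes. Initiation factors had 13, 13 and 9 rises, and the other TOP genes 4, 2 and 3. Against WT, the biogenesis list had 8, 9 and 9 rises, the initiation factors 9, 8 and 7 (with 1 fall in the last), and the other TOP genes 1, 2 and 5, beside 6.99%, 9.96% and 10.7% of all genes. Of 24 mTORC1 and S6 kinase genes 1 rose against the double mutant, and 2 rose and 1 fell against WT. Myc, a regulator of ribosome synthesis, had 544, 885 and 878 CPM in the leukemic double mutant, against 793, 799 and 702 CPM in the double mutant, and was not called (-0.02 ± 0.36). The lists share no gene with the 87, but Fau of the TOP list encodes a ribosomal protein as a fusion.

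Several marker lists moved with the leukemic libraries, those of erythroid, stem and monocyte cells and those of handling. Of 12 erythroid markers 11 rose and none fell against the double mutant, and their summed level was 1477, 10359.8 and 5148 CPM in leukemic libraries 1, 2 and 3, against 1063 to 1389 CPM in the double mutant and 1337 to 1477 CPM in WT. Of 12 LSK and stem cell markers 5 fell against the double mutant and 7 against WT, with sums of 3365, 828 and 1574 CPM in the leukemic libraries, against 3596 to 4216 CPM in the double mutant and 4277 to 4847 CPM in WT. No marker of the 2 lists was at 0 in a leukemic library, and Slc4a1, the erythrocyte anion exchanger, was at 0 in double mutant library 3. Leukemic libraries 2 and 3, with the high erythroid and low stem cell sums, are those with the higher ribosomal protein levels. Of 10 handling and immediate early genes 7 fell against the double mutant and none rose (median -2.74), with sums of 371, 489 and 1694 CPM in the leukemic libraries, against 1815, 3404 and 4409 CPM in the double mutant. Against WT the direction was the opposite: 4 of these genes rose and none fell (median 1.51), with WT sums of 128, 322 and 236 CPM. Of 12 monocyte and dendritic markers 5 fell and 1 rose against the double mutant (median -0.74), with sums of 1720.1, 722 and 1140.0 CPM in the leukemic libraries, against 4653, 3114 and 4204 CPM in the double mutant. Relative to WT 2 of these markers rose and 1 fell (median 0.62), with WT sums of 1159, 1404 and 1468 CPM. The part of these markers in the result was not tested.

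The double mutant was set against Tet2-/-, which asks what Nras(G12D) adds where Tet2 is lost. Rpl13, Rps2 and Rplp2 rose and Rpl3 and Rpl4 fell, 5 of 83 genes, while 28.7% of all genes were called (20.1% of all rose and 8.57% fell). The median of the 83 was -0.13, with 58 below 0, and 0.01 under quantile normalization, which put the median of all genes at -0.24. Rpl13, a 60S protein, had 546, 495 and 609 CPM in the double mutant, against 77.2, 304 and 86.0 CPM in Tet2-/- (2.12 ± 0.47, adjusted p = 0.00727, limma). Rps2, near the mRNA entry of the 40S subunit, had 567, 565 and 635 CPM in the double mutant, against 89.9, 309.7 and 121 CPM in Tet2-/- (1.97 ± 0.49, adjusted p = 0.0111, limma). Rplp2 had 262, 215 and 314 CPM in the double mutant, against 97.7, 209 and 129 CPM in Tet2-/- (0.92 ± 0.29, adjusted p = 0.0298, limma). In the 3 genes no library of one group overlapped the other, and Tet2-/- libraries 1 and 3 lay far below Tet2-/- library 2. Of 10 handling and immediate early genes 10 rose in this comparison, with summed levels of 1815, 3404 and 4409 CPM in the double mutant, against 177, 306 and 135 CPM in Tet2-/-, and their part in the result was not tested.

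Rpl3, at the peptidyl transferase centre, had 868, 756 and 838 CPM in the double mutant, against 1217, 925 and 1389.9 CPM in Tet2-/- (-0.50 ± 0.17, adjusted p = 0.0439, limma). Rpl4 had 1786, 1612 and 1909.7 CPM in the double mutant, against 2546, 1959 and 2985 CPM in Tet2-/- (-0.48 ± 0.16, adjusted p = 0.0392, limma). For these genes too Tet2-/- library 2 was the nearest to the double mutant. Their calls were lost with total-count scaling (changes of -0.45 and -0.43), with quantile normalization (-0.27 and -0.20), and without Tet2-/- library 1 (-0.47 and -0.45) or 3 (-0.37 and -0.34).

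With Tet2-/- libraries 1 and 3 left out together, Tet2-/- is library 2 alone and is assumed to vary like the other groups. Library 2 was the lowest of its group in the median deviation of the 83 (-0.25) but the highest in Rpl13, Rps2 and Rplp2. With library 2 as the only Tet2-/- library, the median change of the 83 was 0.12. Rpl13, Rps2 and Rplp2 then had changes of 0.85, 0.92 and 0.32. That fit called none of the 83 and 0.0215% of all genes, so its lack of calls says nothing about stability. Without Tet2-/- library 2 alone, 15 genes were called, beside 37.6% of all genes. Without Tet2-/- library 1 or 3 alone, 1 gene was, beside 9.03% and 11.5% of all genes. Without double mutant library 1, 2 or 3 there were 2, 3 and 2, beside 25%, 11.9% and 10.3% of all genes.

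Tet2-/- libraries 1 and 3 stood low in transcripts with a GC-rich stretch. For each gene the 100-base window of its transcript with the most G and C was found; its GC had a median of 65% over the 83 genes and 72% over all genes tested. Over 13604 genes the rank correlation (Spearman's rho) of this GC with the deviation from the gene's mean was -0.51 in Tet2-/- 1 and -0.55 in Tet2-/- 3, and over the 83 genes -0.37 and -0.40. In the other 13 libraries the rho over all genes was graded, from -0.34 in Nras(G12D) 3, -0.33 in WT 1 and -0.32 in Tet2-/- 2 to 0.38 and 0.50 in double mutant 3 and 2, and over the 83 genes it lay between -0.05 and 0.41. Rpl13 (window of 76%) differed by -2.59 on the log2 scale between Tet2-/- 1 and 3 and the other 13 libraries. Rps2 (77%) differed by -2.54, Rps4l (75%) by -1.78 and Rplp2 (75%) by -1.25. Of 11 ribosomal protein genes with a window of 75% or more, 4 were lower by more than 1, and of 72 below 75% none was. The cut of 75% equals the lowest window GC of those 4 genes, so this split depends on where the cut lies and is no test. Next came Rpl8 (69%) and Rpl36 (68%), which differed by -0.87 and -0.69. Among all genes, 44.7% of those at or above 75% and 9.4% of those below were lower by more than 1.

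Values differed among the genes with GC-rich windows. Rps19 (79%), Rps10 (78%), Rpl35 (78%) and Rpl38 (77%) differed by 0.38, -0.10, 0.19 and -0.04; Rps10 and Rpl35 were picked after their values were seen. With a correction for transcript GC, window GC and length, Rpl13 changed by 0.93 (adjusted p = 0.0557, limma) and Rps2 by 0.79 (adjusted p = 0.11, limma) between the double mutant and Tet2-/-, and Rplp2 by 0. The same correction gave 13 calls in that comparison, 1 rise and 12 falls, beside 19.6% of all genes, with Rpl38, Rps10, Rps19 and Rpl35 among the 13. Over all genes the rho was -0.51, -0.32 and -0.55 in Tet2-/- and 0.06, 0.50 and 0.38 in the double mutant. Differences in GC between libraries therefore cannot be told apart from genotype here. Tet2-/- libraries 1 and 3 were singled out after their values were seen, and the cause of their low values was not tested.

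**Figure D4:**
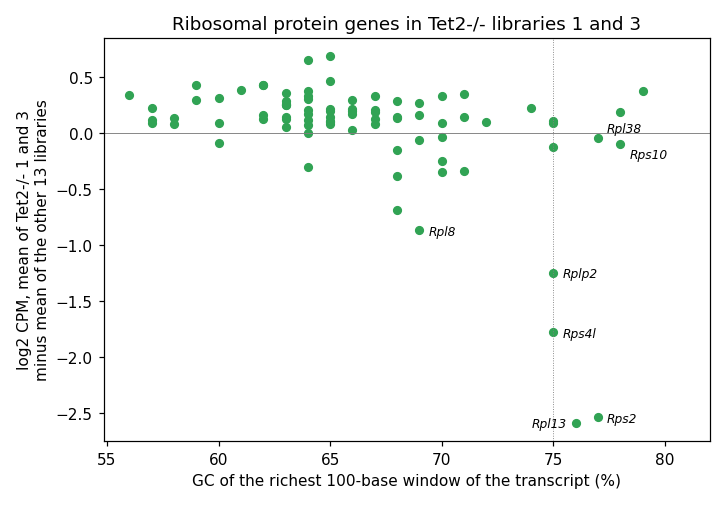
Each point is 1 of the 83 ribosomal protein genes: the x axis gives the GC of the richest 100-base window of its transcript in percent, and the y axis the mean log2 CPM of Tet2-/- libraries 1 and 3 minus that of the other 13 libraries. Rpl13, Rps2, Rps4l and Rplp2 lie below -1 at 75% or more (dotted line), while 7 other genes at 75% or more lie between -0.12 and 0.38.

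The single mutants and the double mutant had no called gene against WT. Between Tet2-/- and WT none of the 83 was called (limma; 0.23% of all genes), 8 had an unadjusted p below 0.05 (23.7% of all genes), and 31 were called with sample quality weights, a fit in which 49.8% of all genes were. The largest differences were those of Rps4l (-1.86 ± 0.42), Rpl13 (-1.63 ± 0.47) and Rps2 (-1.59 ± 0.49), with adjusted p of 0.098, 0.11 and 0.116 (limma). The median of the 83 was 0.23, and 0.07 under quantile normalization, where that of all genes was 0.11. It was -0.03 with Tet2-/- library 2 as the only library of its group. Without Tet2-/- library 2, 7 were called (Rpl13, Rpl3, Rpl4, Rpl8, Rplp2, Rps2 and Rps4l), beside 16% of all genes.

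Between Nras(G12D) and WT none was called (limma; 0% of all genes), 25 had an unadjusted p below 0.05, all higher (4.14% of all genes in either direction), and none was called with sample quality weights (0% of all genes). The median was 0.46, with 80 of 83 above 0, and 0.25 without Nras(G12D) library 1. Rpsa, the laminin receptor protein of the 40S subunit, had 1259, 944 and 892 CPM in Nras(G12D), against 755, 719 and 629 CPM in WT, groups that do not overlap (0.55 ± 0.20, adjusted p = 0.984, limma).

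Between the double mutant and WT none was called (limma; 0.682% of all genes), 1 had an unadjusted p below 0.05 (15.2% of all genes), and 2, Rpl22l1 and Rps4l, were called with sample quality weights (26.3% of all genes). The median was 0.08. Between the double mutant and Nras(G12D) none was called (limma; 0.079% of all genes, 0.0503% higher and 0.0287% lower), 12 had an unadjusted p below 0.05, all lower (7.41% of all genes in either direction), and none was called with sample quality weights (0.158% of all genes). The median was -0.39, with 79 of 83 below 0, and -0.18 without Nras(G12D) library 1. Both comparisons of Nras(G12D) share its libraries.

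The interaction asks whether the double mutant departs from the sum of the single-mutant changes. No gene was called (limma; 0% of all genes), 23 had an unadjusted p below 0.05, 21 of them negative (21% of all genes in either direction), and 49 were called with sample quality weights (42.5% of all genes). The median of the 83 was -0.59, against 0.09 for all genes, with 77 of 83 below 0. Without Tet2-/- library 2, 14 were called, beside 12.1% of all genes.

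**Figure D5:**
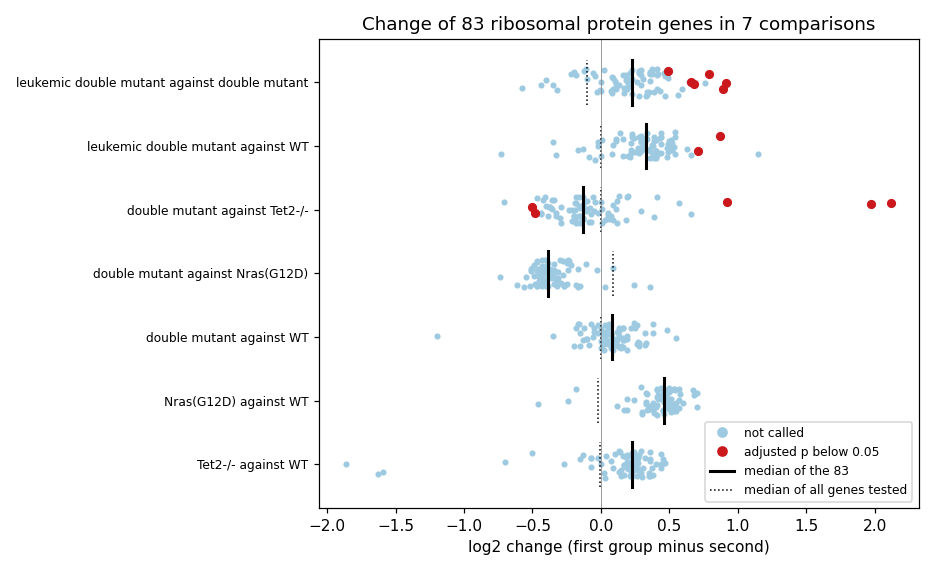
Log2 changes (x axis) of the 83 ribosomal protein genes in 7 comparisons (rows, first-named group minus the other), red where the adjusted p was below 0.05, with the median of the 83 as a solid line and that of all genes tested as a dotted line. The medians run from -0.39 for the double mutant against Nras(G12D) to 0.46 for Nras(G12D) against WT, and called genes are found in the top 3 rows only.

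The acidic stalk is a base protein, Rplp0, carrying dimers of Rplp1 and Rplp2, and Rplp1 and Rplp2 were compared as a ratio of CPM. Rplp1 was at 121% to 134% of Rplp2 in the leukemic double mutant, 115% to 126% in the double mutant, 126% to 148% in Nras(G12D) and 131% to 147% in WT. In Tet2-/- libraries 1, 2 and 3 it was at 265%, 139.9% and 262%. The high ratios are those of the libraries low in Rplp2, and Rplp1 differed there by -0.25 from the other 13 libraries, with a richest window of 70% GC.

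Paralogs of ribosomal proteins were read beside their partners, as a ratio of CPM within each library. Rps27l, a p53 target in human cells, was at 132%, 191% and 173% of Rps27 in the leukemic double mutant, against 67.3%, 82.7% and 77.5% in the double mutant. In WT it was at 101%, 115% and 102%, and these 3 groups do not overlap. It was at 76.7%, 81.8% and 99.8% in Nras(G12D) and at 83.5%, 82.1% and 69.8% in Tet2-/-. Both of these groups overlap the double mutant. Rps27l rose in the leukemic double mutant against the double mutant (177, 285 and 249 CPM against 132, 127 and 145 CPM; 0.79 ± 0.23, adjusted p = 0.0263, limma), while Rps27 had 134, 149 and 144 CPM, against 196, 154 and 187 CPM in the double mutant. Of 12 genes of the p53 and nucleolar stress list none was called in that comparison, beside 24.3% of all genes. Under quantile normalization 2 of the 12 rose, beside 8.65% of all genes. None was called under total-count scaling or in a fit of only the compared groups. A link of Rps27l to p53 was not tested.

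Rpl22l1, a paralog that can take the place of Rpl22 in the 60S subunit, was at 14.7%, 16.6% and 16.1% of Rpl22 in the double mutant, against 11.7%, 8.53% and 9.30% in Nras(G12D), 8.91%, 10.2% and 9.69% in Tet2-/- and 10.8%, 13.6% and 11.2% in WT. The double mutant did not overlap these 3 groups; the leukemic double mutant, at 10.5%, 11.8% and 15.2%, did overlap it. Rpl22l1 itself changed by 0.57 ± 0.28 between the double mutant and Tet2-/- and was not called (adjusted p = 0.128, limma).

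The transcribed processed pseudogene Rps4l was at 2.31%, 1.22% and 3.55% of Rps4x in the leukemic double mutant, 2.37%, 1.57% and 1.52% in the double mutant, 1.51%, 2.36% and 2.76% in Nras(G12D), 0.673%, 2.51% and 0.556% in Tet2-/-, and 3.39%, 4.34% and 5.02% in WT. WT overlapped only the leukemic double mutant, through leukemic library 3. Rpl7l1, a nucleolar relative of Rpl7, was at 30.1% of Rpl7 in leukemic library 1 and 22.5% in Nras(G12D) 1, and at 42.0% to 64.9% in the other 13 libraries. The paralogs known from muscle and testis were close to absent: Rpl3l was at 0.176 to 3.26 CPM, the highest in leukemic library 1, Rpl39l at 0 to 0.343 CPM, and Rpl10l was at 0 in 14 libraries and at 0.0319 CPM in Tet2-/- 3.

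Rpl5, Rpl11, Rps14, Rps19, Rps6, Rpl38, Rpl10a and Rps25 were not called in any of the 8 comparisons in the main fit, where 0% to 28.7% of all genes were. Other fits did call some of them. Rpl5 was called between the leukemic double mutant and the double mutant with the GC correction (29% of all genes) and the sex term (26.2%). It was also called there without leukemic library 1 (38%). Rps6 was called between the double mutant and Tet2-/- without Tet2-/- library 2 (37.6%). Rpl5 and Rpl11, which bind Mdm2 when ribosome assembly fails, had 184, 277 and 256 CPM and 164, 215 and 213 CPM in the leukemic double mutant, against 149.6, 135 and 171 CPM and 163, 139 and 165 CPM in the double mutant. For Rpl5 the groups did not overlap, with a change of 0.64 ± 0.25 (adjusted p = 0.0745, limma). Rps19 had 363, 383 and 382 CPM in the leukemic double mutant, against 443, 381 and 477 CPM in the double mutant and 418, 396 and 332 CPM in WT, which overlap. Rps14 had 626, 717 and 654 CPM in the leukemic double mutant, against 673, 556 and 788 CPM in the double mutant and 674, 650.1 and 539 CPM in WT, also with overlap. Rps6, the substrate of S6 kinase, had 352, 348 and 349 CPM in the leukemic double mutant, against 307, 276 and 327 CPM in the double mutant and 342, 330.3 and 285 CPM in WT. Its leukemic libraries did not overlap either of these groups. Rpl38, needed in mice for the translation of Hox mRNAs, had 60.5, 83.7 and 83.7 CPM in the leukemic double mutant, against 56.6, 49.0 and 65.7 CPM in the double mutant, which overlap. Rpl10a and Rps25 had log2 changes of 0.02 and 0.28 in the same comparison.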

How the data were processed

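RNA from LSK cells was sequenced from stranded mRNA libraries, 15 in all. The authors deposited log2 CPM values per gene symbol and library (0.5 added to each count), read as such because the values return whole counts within 1e-06 for 100% of entries; a scaling factor of 0.81 to 1.12 per library is part of them. The submitters' processing notes list limma 3.28.21, edgeR 3.14.0, STAR 2.4.0f1 and bcl2fastq, with NCBIM37 and mm10 as builds of unstated role. How reads were counted (tool, annotation, strand) is not given in the sources used here.

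Columns were matched to samples by description; N2-3 was read as Nras(G12D) library 2, and BMT1 to BMT3 as leukemic libraries 1 to 3. Genes with a log2 value of at least 0 in at least 3 libraries, 13927 in all, were fitted with limma 3.58.1 in R 4.3.3 (eBayes with trend), 5 group means and 10 residual degrees of freedom, two-sided, Benjamini-Hochberg adjusted. Log2 changes are given with their standard error, and understate changes of low genes. The fit was tested on simulated data. Alternatives were total-count scaling, quantile normalization, an added count of 0.1, no filter, only the compared groups, sample quality weights (voom), a replicate block and leaving out each library; a GC correction, a sex term and leaving out Tet2-/- libraries 1 and 3 were added after seeing the data. Copies were found with blastn 2.17.0. Promoters are from RefSeq, transcripts from GENCODE M21. Genes were named by a rule: every called gene, the stalk genes, paralogs with partners, genes with roles of their own, and the highest, lowest and most variable 3. The ribosomal protein genes and the lists were chosen with earlier results of these data known.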

Additional observations from a re-analysis of the deposited data

How the results depend on the processing

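The median log2 change of the 83 genes kept its sign in most alternatives, and its value moved by more than the spread between libraries in 6: the leukemic double mutant under total-count scaling (0.06 against WT, 0 against the double mutant) and quantile normalization (0.04 and -0.06), and Tet2-/- against WT (-0.03) and the double mutant against Tet2-/- (0.12) without Tet2-/- libraries 1 and 3, where library 2 alone is assumed to vary like the other groups. Within that spread, the median for the double mutant against Tet2-/- was 0.01 under quantile normalization. Counts of called genes were less stable, and the cause was not tested. Sample quality weights gave 31 calls for Tet2-/- against WT (49.8% of all genes), 2 for the double mutant against WT (26.3%) and 49 for the interaction (42.5%). They gave 48 for the leukemic double mutant against WT (60.5%) and 26 for the double mutant against Tet2-/- (63.2%). For the leukemic double mutant against the double mutant they gave 38 (56.7%). Total-count scaling gave 0 for the leukemic double mutant against WT (27% of all genes) and 3 for the double mutant against Tet2-/- (28.8%). For the leukemic double mutant against the double mutant it gave 0 (26.6%). No filter gave 1, 2 and 2 for those 3 (9.19%, 8.56% and 8.64% of all genes). Quantile normalization gave 0 for both leukemic comparisons, against WT (22.9%) and against the double mutant (17.9%). A fit of only the compared groups gave 1 for the double mutant against WT (4.12% of all genes). It gave 0 for the leukemic double mutant against the double mutant (5.32%). The GC correction gave 1 for the double mutant against WT (0.97% of all genes) and 12 for the leukemic double mutant against WT (29.5%). It gave 13 for the double mutant against Tet2-/- (19.6%), and the sex term gave 10 and 9 for the last 2 comparisons (28.9% and 28.3%). Without Tet2-/- libraries 1 and 3 they had 1 and 0; with 1 library in the group, a count of 0 says nothing about stability. Under quantile normalization Rpl4 changed sign between the leukemic double mutant and the double mutant (-0.01). Leaving out 1 library gave 0 to 7 calls for Tet2-/- against WT (0.0359% to 16% of all genes). It gave 0 to 10 for the leukemic double mutant against WT (9.74% to 37.7%) and 1 to 15 for the double mutant against Tet2-/- (9.03% to 37.6%). For the leukemic double mutant against the double mutant it gave 0 to 11 (8.51% to 38%). The interaction had 0 to 14 (0% to 12.1%), and the other 3 comparisons had 0 (at most 7.12%).

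Deviations of libraries with the same number had correlations from -0.35 to 0.29 (median 0.07, 30 pairs). Those of different number had correlations from -0.41 to 0.47 (median -0.035, 60 pairs). The ranges overlap, and deviations from means of only 3 libraries cannot show whether the numbers pair the libraries. With a replicate block 2 of the 83 genes were called for Tet2-/- against WT, beside 5.12% of all genes, while the main fit called 0 and 0.23%. There was 1 for the leukemic double mutant against WT (26.4% of all genes) and 3 for the double mutant against Tet2-/- (27.7%). With 3 libraries a group, depth did not limit the abundant genes; Rpl10l and Rpl39l lay at or near the limit that a count of 0 allows.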
